A study of Mus musculus with 6 samples.

Results

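The genes described here encode the nuclear pore complex and the factors that carry cargo through it. A set of 42 genes was taken by name, 29 nucleoporins (the pore's own proteins) and 13 transport factors (importins, exportins and the Ran cycle), in mouse myoblasts grown on fibronectin or on collagen. Members were found by matching each probe set of the array to its gene and keeping probe sets with exactly 1 gene, under its older or its current symbol. In this way 40 of the 42 had a probe set, of 18194 genes that the array could name, and 111 probe sets of 45101 belonged to them. The nucleoporins Nup35 and Tpr had none and were not analysed here, which left 27 nucleoporins and 13 transport factors.

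The nuclear pore is a large ring-shaped assembly that spans both membranes of the nuclear envelope. Scaffold nucleoporins form its rings, membrane nucleoporins anchor it, and nucleoporins rich in phenylalanine-glycine repeats fill the channel and hold back large proteins. Importins bind a cargo's nuclear localisation signal in the cytoplasm and release it where Ran carries GTP, while exportins pick up cargo together with Ran-GTP inside the nucleus. Cycling cells build new pores both in interphase and when the envelope reforms after mitosis, and several Y complex nucleoporins also sit at kinetochores in mitosis.

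The samples were 3 of hindlimb muscle myoblasts plated on fibronectin and 3 plated on collagen I, all grown for 72 hours. Fibronectin and collagen I are extracellular matrix proteins used to coat culture dishes. All 6 came from male C57BL/6JRj mice aged 9 to 15 weeks, and both coatings had the same Ham's F-10 medium with 20% fetal bovine serum and 2.5 ng/ml basic fibroblast growth factor. The labels do not say whether the replicates came from separate animals or cultures, or whether animals were pooled, so the p-values speak only for the variation among these 6 samples, part or all of which may be technical. The samples used here include no uncoated dish, so a difference between the coatings has no direction relative to an uncoated state.

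Expression was read as the log2 probe set signal deposited by the authors, in which a difference of 1 is a doubling. Each gene was represented by its brightest probe set, and genes whose mean signal reached 2.33, the median over all probe sets, were tested with limma across 10941 genes (Benjamini-Hochberg adjusted p, threshold 0.05). Changes are fibronectin minus collagen, so a positive one is higher on fibronectin, and levels are compared within a gene and never between genes. Samples of the same coating correlated at 0.997 to 0.998 over probe sets and samples of different coatings at 0.994 to 0.995, and no sample stood apart. The satellite cell and myoblast genes Myod1 and Pax7 averaged 10.04 ± 0.04 on fibronectin and 10.10 ± 0.03 on collagen for Myod1, and 8.77 ± 0.08 on fibronectin and 8.89 ± 0.02 on collagen for Pax7 (SD, n = 3 each), so markers of the labelled cell type were present.

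Transcripts of pore and transport genes were higher on fibronectin or did not pass the test, and none was lower. Of the 39 members tested, 23 were higher on fibronectin and 0 were lower at adjusted p under 0.05. Among all genes tested 19.9% were higher and 20.2% were lower at that threshold. The members were chosen with earlier results of these data known, so their counts describe the set and do not test it. At unadjusted p under 0.05 the members' counts were 26 and 0, against 2738 higher and 2663 lower of the 10941 genes tested. The changes were small, with a median of 0.17 over the members (0.00 over all genes tested), a lowest of -0.07 among those tested and a highest of 0.48, which is 1.39-fold. Nucleoporins had 17 of 26 higher with a median change of 0.20, and transport factors 6 of 13 with a median of 0.16. Whether those classes differ from each other was not tested.

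The members are bright on the array, so a second background was taken. Of the 38 members in the brighter range (a mean of at least 5.18), 22 were higher, against 22.6% of all genes in that range. In 28 of 39 members every fibronectin sample lay above every collagen sample, which held for 27.4% of all genes tested. The opposite order, every fibronectin sample below every collagen sample, was seen in 0 members and in 25.9% of all genes. The median deviation of the members from their own mean was 0.09, 0.07 and 0.10 in the fibronectin samples, against -0.05, -0.09 and -0.08 in the collagen samples, and each fibronectin sample's median was above each collagen sample's.

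Fewer members passed with fewer samples or without the filter. The count was 14, 14 and 15 without fibronectin replicate 1, 2 and 3, where 15.1%, 15.1% and 15.3% of all genes were higher. Nucleoporins alone had 8, 9 and 10 calls in those fits and 11 without collagen replicate 2, where 14.9% of all genes were higher. With no filter on dim genes the count was 13 of 40 members, where 8.26% of 18194 genes were higher. Centring each sample on its median gave 27 members higher, where 27.3% of all genes were higher, and the share of higher genes among all calls was then 64.7%, against 49.6% as deposited. Centring adds 0.055 to every gene's change. No member was lower in any of these fits.

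**Figure D1:**
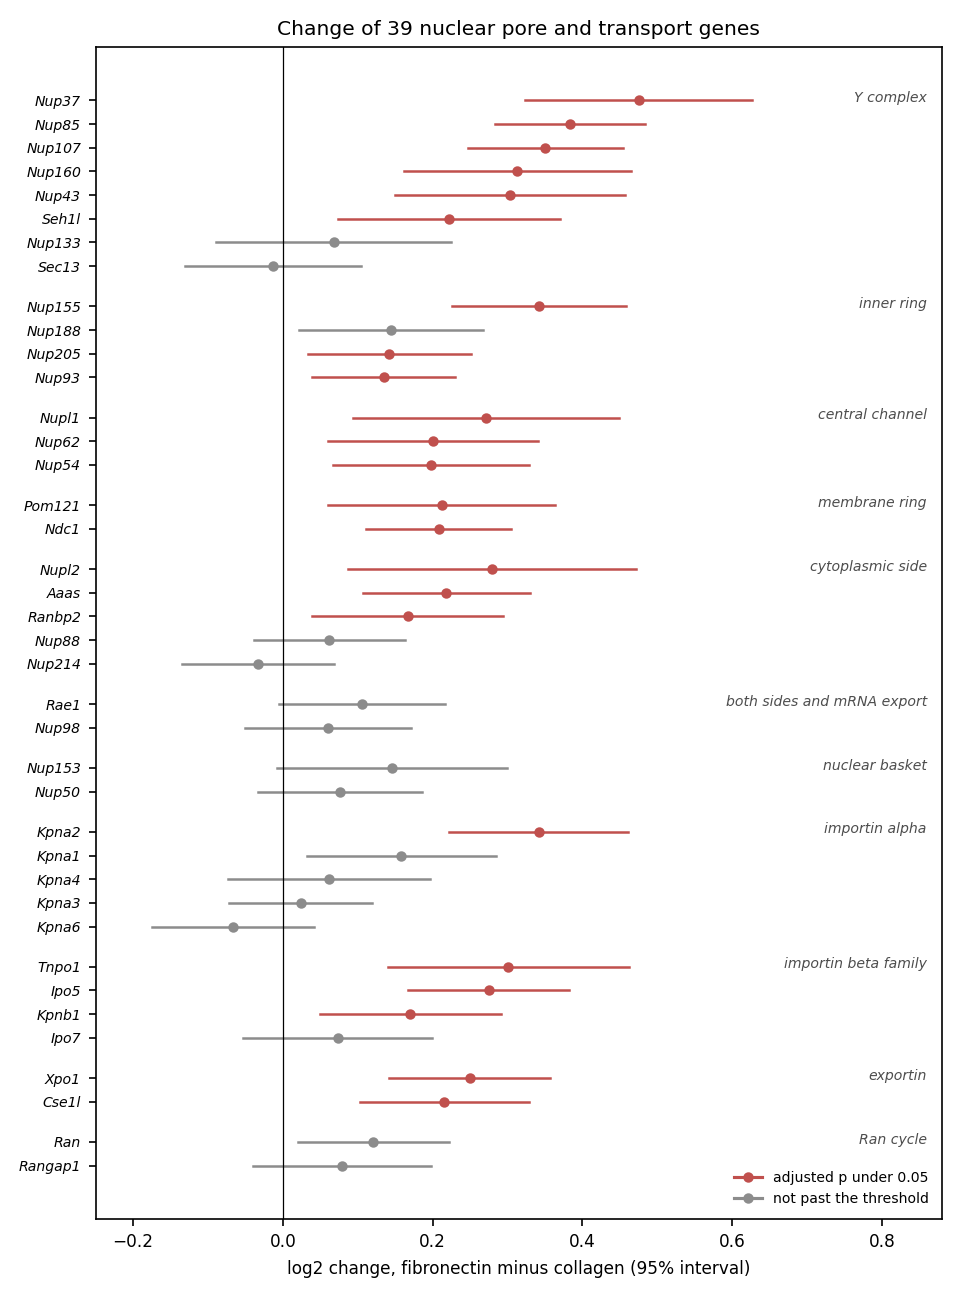
Log2 change (fibronectin minus collagen, x axis) with 95% interval for each of the 39 members tested (y axis), grouped by role in the pore or in transport. Red points passed adjusted p under 0.05, and the 23 red points all lie right of 0, with Nup37 at 0.48 the farthest.

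**Figure D2:**
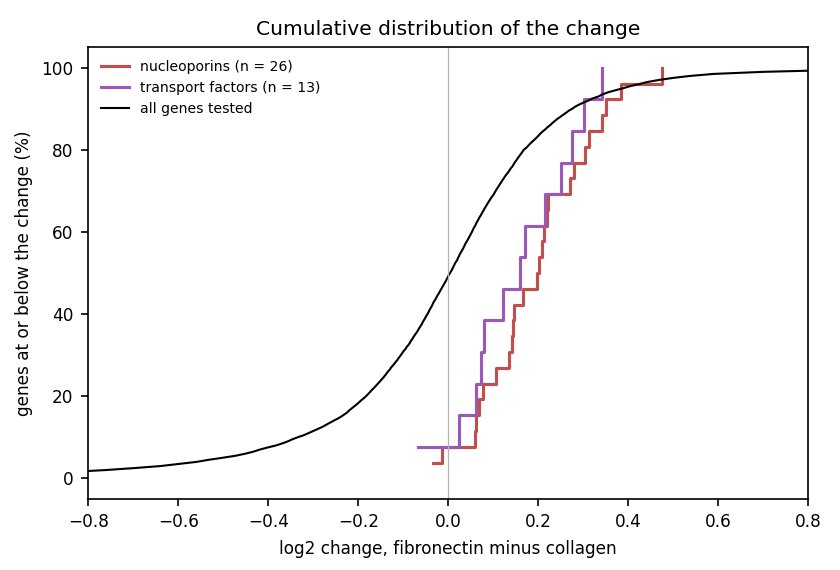
Cumulative share of genes (y axis, percent) at or below each log2 change (x axis, fibronectin minus collagen) for 26 nucleoporins, 13 transport factors and all 10941 genes tested. The median is 0.20 for nucleoporins, 0.16 for transport factors and 0.00 for all genes.

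The Y complex, the scaffold of the pore's outer rings, had the largest median change of the role classes, 0.31, with 6 of its 8 members higher. The share to set beside this and each class count below is the 19.9% of all genes tested that were higher. Nup85, a core scaffold subunit, read 8.20, 8.26 and 8.25 on fibronectin, against 7.85, 7.83 and 7.89 on collagen, a change of 0.38 (SE 0.04, adjusted p = 0.000439). Nup107, another subunit, after which the complex is also named, read 7.44, 7.39 and 7.40 on fibronectin, against 7.09, 7.01 and 7.07 on collagen, a change of 0.35 (SE 0.04, adjusted p = 0.000747). Replicates of both genes lay close together, and every fibronectin sample was above every collagen sample. Nup37, a peripheral subunit, read 8.35, 8.27 and 8.15 on fibronectin, against 7.87, 7.75 and 7.73 on collagen, which is the largest change of any member at 0.48 (SE 0.07, adjusted p = 0.00107). Nup160, which binds Nup37 and Nup85, read 6.91, 6.87 and 6.97 on fibronectin, against 6.48, 6.62 and 6.71 on collagen, a change of 0.31 (SE 0.07, adjusted p = 0.00703). Among the Nup160 values, the lowest fibronectin sample was still above the highest collagen sample.

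Of the remaining Y complex members, Nup43 changed by 0.30 (SE 0.07, adjusted p = 0.00856) and Seh1l, which also belongs to the GATOR complex of amino acid sensing, by 0.22 (SE 0.06, adjusted p = 0.0266). Nup133, the subunit at the end of the stem, did not pass, with a change of 0.07 (SE 0.07, adjusted p = 0.458) and overlapping samples. Sec13, which also forms the outer coat of COPII vesicles, had the change nearest to 0 of the Y complex at -0.01 (SE 0.05, adjusted p = 0.854), with a 95% interval of -0.13 to 0.10. The Nup133 and Sec13 samples of the coatings were intermingled.

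Promoters are printed for only 4 of the role classes, and other classes also had members higher on fibronectin. For the member with the largest change in each of these 4, the upstream sequence is shown. It covers the 250 bases before an annotated transcript start (RefSeq, GRCm38.p6), 5′ to 3′ on the gene's strand, with motif matches in capitals. For Nup37 this is chr10:88146742-88146991, plus strand, the first of its annotated starts.
Nup37: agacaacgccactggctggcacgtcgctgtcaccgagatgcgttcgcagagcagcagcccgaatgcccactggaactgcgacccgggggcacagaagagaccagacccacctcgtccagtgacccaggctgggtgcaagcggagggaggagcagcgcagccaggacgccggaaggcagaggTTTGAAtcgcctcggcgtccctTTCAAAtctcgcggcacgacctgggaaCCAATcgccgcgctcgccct
The stretch holds a CCAAT box and a pair of TTTGAA elements, one of them on the opposite strand (read as TTCAAA).

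The inner ring, which links the outer rings to the membrane and to the channel, had 3 of 4 members higher and a median of 0.14. Nup155, its membrane-binding scaffold subunit, read 6.57, 6.44 and 6.46 on fibronectin, against 6.12, 6.15 and 6.18 on collagen, a change of 0.34 (SE 0.05, adjusted p = 0.0014). Nup93, which anchors the channel nucleoporins, read 7.63, 7.60 and 7.61 on fibronectin, against 7.51, 7.47 and 7.46 on collagen, a change of 0.13 (SE 0.04, adjusted p = 0.0339). The coatings were apart for both genes, with the smaller gap for Nup93. Nup205, a large scaffold protein that binds Nup93, read 8.91, 8.95 and 8.95 on fibronectin, against 8.78, 8.74 and 8.86 on collagen, with a change of 0.14 (SE 0.05, adjusted p = 0.044), and its call was lost in 9 of 15 refits. Nup188, the paralogue of Nup205, read 5.79, 5.91 and 5.85 on fibronectin, against 5.73, 5.64 and 5.76 on collagen, and its change of 0.14 (SE 0.05, adjusted p = 0.0621) did not pass although the groups did not overlap.

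The upstream stretch of Nup155 is chr15:8109063-8109312, plus strand, shown as the inner ring member with the largest change.
Nup155: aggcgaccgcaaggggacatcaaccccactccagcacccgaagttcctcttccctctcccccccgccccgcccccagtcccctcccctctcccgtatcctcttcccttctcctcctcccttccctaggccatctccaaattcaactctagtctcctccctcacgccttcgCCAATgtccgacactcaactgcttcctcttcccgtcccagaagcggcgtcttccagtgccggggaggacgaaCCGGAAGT
It holds a CCAAT box and a CCGGAAGT site, which Ets factors bind.

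All 3 members of the central channel trimer, whose phenylalanine-glycine repeats form the permeability barrier, were higher, with a median of 0.20. Each of these 3 calls was lost in 5 of 15 refits. Nup62 read 9.79, 9.73 and 9.62 on fibronectin, against 9.59, 9.46 and 9.48 on collagen, a change of 0.20 (SE 0.06, adjusted p = 0.0319). Nup54 read 7.68, 7.58 and 7.50 on fibronectin, against 7.41, 7.35 and 7.40 on collagen, a change of 0.20 (SE 0.06, adjusted p = 0.0258). Nupl1, which encodes the Nup58 and Nup45 proteins, read 7.68, 7.69 and 7.71 on fibronectin, against 7.24, 7.47 and 7.55 on collagen, a change of 0.27 (SE 0.08, adjusted p = 0.0246). For Nup62 and Nup54 replicate 3 was the lowest of the fibronectin samples, and for Nupl1 collagen replicate 1 was the lowest of all.

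Both membrane nucleoporins that were bright enough to test were higher. Ndc1, a transmembrane protein required for pore insertion, read 6.00, 6.02 and 6.05 on fibronectin, against 5.82, 5.79 and 5.83 on collagen, a change of 0.21 (SE 0.04, adjusted p = 0.00592). Pom121, which takes part in pore assembly in interphase, read 8.79, 8.74 and 8.87 on fibronectin, against 8.46, 8.64 and 8.65 on collagen, a change of 0.21 (SE 0.07, adjusted p = 0.0342). Nup210, another membrane nucleoporin, is known in mouse myoblasts as a protein that appears when they differentiate. Its probe set read 1.29, 1.21 and 1.03 on fibronectin, against 1.41, 1.36 and 1.24 on collagen, below the filter on both coatings, so it was not tested with the others. The values of the coatings overlap, and with no filter the adjusted p was 0.251.

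On the cytoplasmic side 3 of 5 members were higher, with a median of 0.17. Aaas, which encodes aladin, the protein mutated in human triple A syndrome, read 7.61, 7.54 and 7.59 on fibronectin, against 7.43, 7.34 and 7.31 on collagen, a change of 0.22 (SE 0.05, adjusted p = 0.00906). Nupl2, a partner of the mRNA export factor Gle1, read 4.34, 4.29 and 4.31 on fibronectin, against 4.20, 3.85 and 4.05 on collagen, a change of 0.28 (SE 0.08, adjusted p = 0.03), the second collagen sample being the lowest. Ranbp2, which forms the cytoplasmic filaments and acts as a SUMO ligase, read 7.06, 7.00 and 7.10 on fibronectin, against 6.92, 6.94 and 6.80 on collagen, a change of 0.17 (SE 0.06, adjusted p = 0.0437), and its call was lost in 9 of 15 refits. Nup88 read 8.50, 8.49 and 8.51 on fibronectin, against 8.47, 8.39 and 8.46 on collagen, and its change of 0.06 (SE 0.04, adjusted p = 0.29) did not pass. Nup214, which holds Nup88 at the pore, had a change of -0.03 (SE 0.04, adjusted p = 0.579). The 95% intervals were -0.04 to 0.16 for Nup88 and -0.13 to 0.07 for Nup214.

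On their brightest probe sets, neither the mRNA export pair nor the nuclear basket passed the test. Nup98, a channel nucleoporin found on both faces of the pore, read 6.98, 7.00 and 6.90 on fibronectin, against 6.91, 6.85 and 6.93 on collagen, a change of 0.06 (SE 0.05, adjusted p = 0.351) with overlapping groups. Rae1, which binds Nup98 and messenger ribonucleoproteins, read 8.06, 8.00 and 7.96 on fibronectin, against 7.95, 7.89 and 7.86 on collagen, a change of 0.11 (SE 0.05, adjusted p = 0.115). For Rae1 a narrow gap separated the groups. In the basket, Nup153 read 7.26, 7.16 and 7.39 on fibronectin, against 7.08, 7.18 and 7.12 on collagen, a change of 0.15 (SE 0.07, adjusted p = 0.117), its second fibronectin sample lying below a collagen sample. Nup50, which helps to release importin alpha from its cargo, read 7.09, 7.14 and 7.17 on fibronectin, against 7.10, 7.00 and 7.07 on collagen, a change of 0.08 (SE 0.05, adjusted p = 0.232). All 4 changes were positive.

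**Figure D3:**
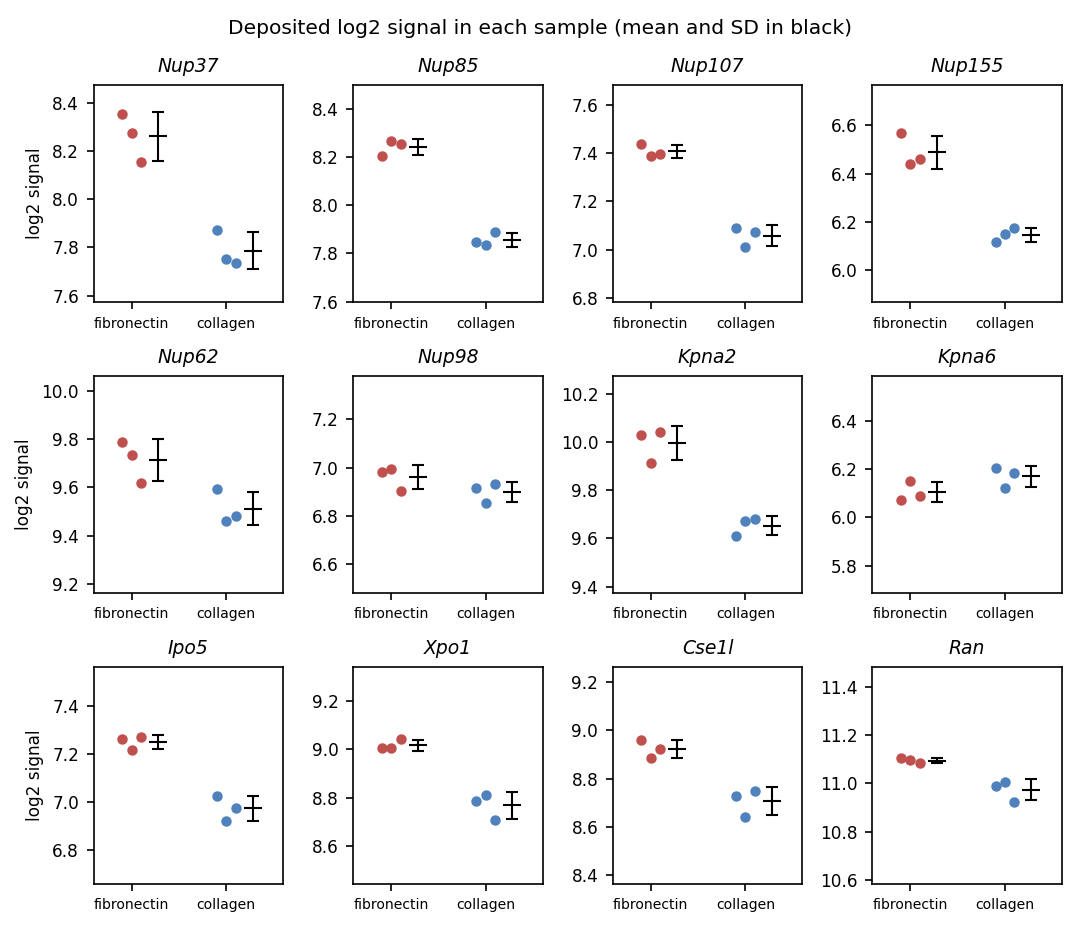
Deposited log2 signal (y axis, the same span in every panel) of 12 members in the 3 fibronectin samples (red) and the 3 collagen samples (blue), with mean and SD in black. Nup37, Nup85, Nup107, Nup155, Nup62, Kpna2, Ipo5, Xpo1, Cse1l and Ran do not overlap between coatings, and Nup98 and Kpna6 do.

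Among importin alpha genes, the adaptors that read classical localisation signals, 1 of 5 was higher, near the 19.9% of all genes tested. The median change was 0.06. Kpna2 read 10.03, 9.91 and 10.04 on fibronectin, against 9.61, 9.67 and 9.68 on collagen, a change of 0.34 (SE 0.05, adjusted p = 0.00162) or 1.27-fold. Kpna1 read 6.59, 6.53 and 6.56 on fibronectin, against 6.48, 6.31 and 6.41 on collagen, and its change of 0.16 (SE 0.05, adjusted p = 0.0504) missed the threshold. Kpna4 read 6.84, 6.71 and 6.87 on fibronectin, against 6.81, 6.70 and 6.73 on collagen, a change of 0.06 (SE 0.06, adjusted p = 0.435). Kpna6 read 6.07, 6.15 and 6.09 on fibronectin, against 6.21, 6.12 and 6.18 on collagen, a change of -0.07 (SE 0.05, adjusted p = 0.29), the lowest of the 39 tested members. The Kpna3 change was 0.02 (SE 0.04, adjusted p = 0.675). The 95% interval of the Kpna2 change, 0.22 to 0.46, lies above those of Kpna3 (-0.07 to 0.12), Kpna4 (-0.07 to 0.20) and Kpna6 (-0.17 to 0.04). It overlaps that of Kpna1 (0.03 to 0.28). The difference between these paralogues was not tested.

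The upstream stretch of Kpna2 is chr11:106999526-106999775, minus strand.
Kpna2: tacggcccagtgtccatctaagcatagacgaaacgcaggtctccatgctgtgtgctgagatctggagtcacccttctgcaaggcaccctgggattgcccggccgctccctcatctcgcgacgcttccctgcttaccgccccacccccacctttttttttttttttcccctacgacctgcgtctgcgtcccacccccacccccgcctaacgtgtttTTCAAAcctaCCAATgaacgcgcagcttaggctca
It holds a CCAAT box and a TTTGAA element on the opposite strand (read as TTCAAA).

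In the importin beta family, the receptors that dock at the pore, 3 of 4 members were higher, with a median of 0.22. Kpnb1, importin beta 1 and the partner of importin alpha, read 7.92, 7.97 and 8.06 on fibronectin, against 7.86, 7.79 and 7.79 on collagen, a change of 0.17 (SE 0.05, adjusted p = 0.0333). Ipo5, which imports ribosomal proteins and histones, read 7.26, 7.21 and 7.27 on fibronectin, against 7.03, 6.92 and 6.97 on collagen, a change of 0.27 (SE 0.05, adjusted p = 0.00278). Tnpo1, transportin 1, the import receptor of hnRNP A1, read 8.35, 8.34 and 8.54 on fibronectin, against 8.06, 8.20 and 8.06 on collagen, a change of 0.30 (SE 0.07, adjusted p = 0.011), and fibronectin replicate 3 was the highest sample. Ipo7 read 9.34, 9.26 and 9.27 on fibronectin, against 9.13, 9.25 and 9.27 on collagen, and its change of 0.07 (SE 0.05, adjusted p = 0.318) did not pass, with overlapping groups.

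Both exportins were higher. Xpo1, also called Crm1, which exports proteins with a leucine-rich signal, read 9.00, 9.01 and 9.04 on fibronectin, against 8.79, 8.81 and 8.71 on collagen, a change of 0.25 (SE 0.05, adjusted p = 0.00434). Cse1l, which returns importin alpha to the cytoplasm, read 8.96, 8.89 and 8.92 on fibronectin, against 8.73, 8.64 and 8.75 on collagen, a change of 0.22 (SE 0.05, adjusted p = 0.00978). Every fibronectin sample was above every collagen sample for both genes.

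The upstream stretch of Xpo1 is chr11:23255791-23256040, plus strand.
Xpo1: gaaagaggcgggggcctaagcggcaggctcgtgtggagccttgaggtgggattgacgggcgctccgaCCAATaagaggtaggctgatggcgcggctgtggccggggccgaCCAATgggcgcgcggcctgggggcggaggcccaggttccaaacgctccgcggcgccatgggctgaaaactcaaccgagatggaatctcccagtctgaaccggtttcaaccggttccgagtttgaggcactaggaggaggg
It holds a pair of CCAAT boxes.

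In the Ran cycle neither member passed on its brightest probe set. Ran, the GTPase that sets the direction of transport, read 11.10, 11.10 and 11.08 on fibronectin, against 10.99, 11.01 and 10.92 on collagen, a change of 0.12 (SE 0.04, adjusted p = 0.0592). Its groups did not overlap, and the call changed in 4 of 15 refits. Rangap1, which makes Ran hydrolyse its GTP in the cytoplasm, read 6.67, 6.64 and 6.62 on fibronectin, against 6.65, 6.53 and 6.51 on collagen, a change of 0.08 (SE 0.05, adjusted p = 0.256), with overlapping groups.

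**Figure D4:**
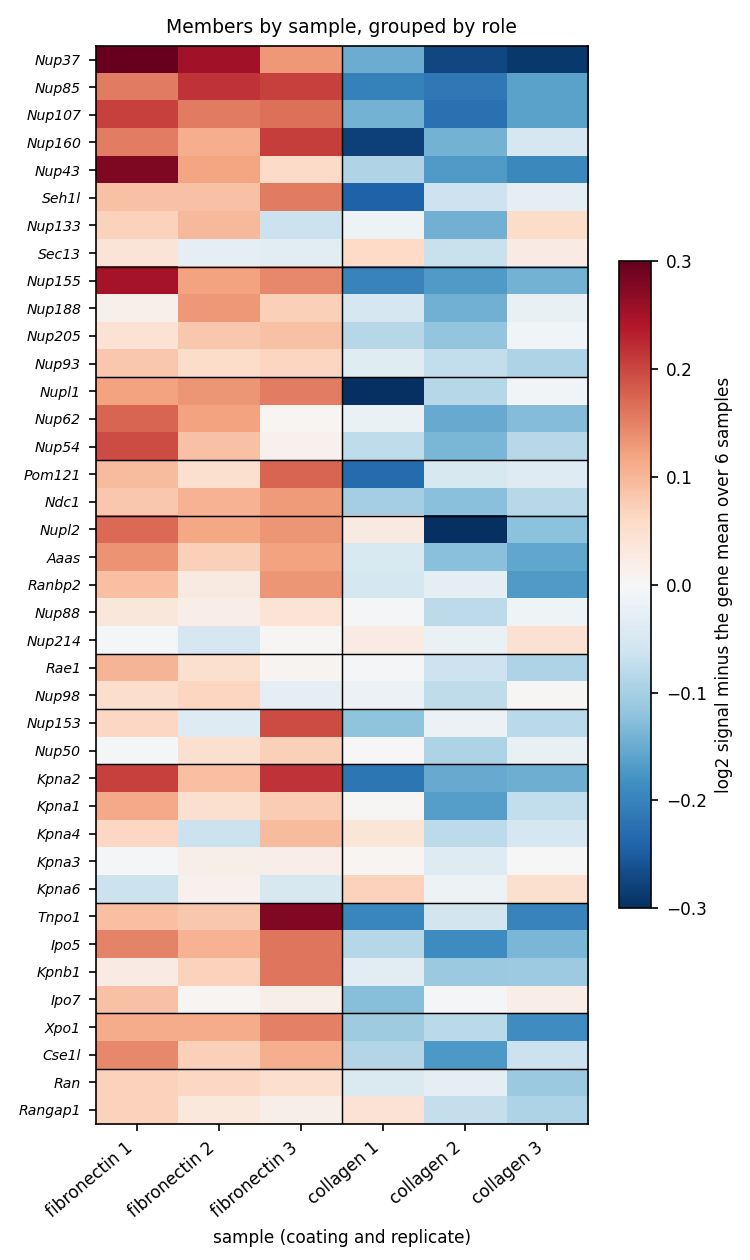
Log2 signal of each of the 39 members minus that gene's mean over the 6 samples (colour, red above and blue below the mean), with fibronectin samples left and collagen samples right. Horizontal lines separate role classes in the order of the text. The fibronectin columns are mostly red, with median deviations of 0.09, 0.07 and 0.10, and the collagen columns mostly blue, at -0.05, -0.09 and -0.08.

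Over 15 refits with other filters, scalings, probe set choices, model settings or 1 sample left out, 12 of the 23 called members kept their call in every refit that could measure them. These were Nup37, Nup43, Nup85, Nup107 and Nup160 of the Y complex, Nup155, Ndc1, Aaas, Kpna2, Ipo5, Xpo1 and Cse1l. Tnpo1 lost its call in 1 refit, and Nup62, Nup54, Nupl1, Pom121 and Seh1l in 5. Kpnb1 lost it in 6 refits, Nup93 and Nupl2 in 7, and Nup205 and Ranbp2 in 9. Of the 16 members that did not pass, 12 passed in none of the refits, and Ran, Rae1, Kpna1 and Nup188 passed in some. The signs of Sec13 and Nup214, below 0 as deposited, depend on the scaling, since the 0.055 that centring adds to every gene puts them at 0.04 and 0.02. Kpna6 stayed negative in every refit, between -0.09 and -0.01, and never passed.

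Many members have several probe sets, which read different stretches of the transcript and allow a second look at each gene. In a fit over all probe sets bright enough to test, 40 of 93 member probe sets were higher and 0 were lower, against 16.2% higher among all probe sets tested, and 18 more fell below the filter. Probe sets of 1 gene share samples and transcripts, so they are not independent. Of the 28 members with at least 2 tested probe sets, 19 had positive changes in all of them, 7 had mixed signs and 2 (Nup214 and Kpna6) had negative changes in all. In 7 members all tested probe sets were higher, among them all 4 of Nup62 (0.20 to 0.28), both of Nup85 (0.35 and 0.38), both of Ipo5 (0.27 and 0.29) and both of Xpo1 (0.25 and 0.27).

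The probe sets disagreed for several members. Nup133 had changes of 0.21 and 0.23 past the threshold in a pair of its probe sets, 0.07 in the brightest and -0.32 in another, neither of which passed. Kpna1 had 1 of 5 probe sets past the threshold, at 0.49, and the others lay between 0.01 and 0.16. In the nuclear basket, another probe set passed for Nup153, at 0.16 (adjusted p = 0.0449), and for Nup50, at 0.24 (adjusted p = 0.0295). The 6 tested probe sets of Seh1l ran from 0.10 to 0.51, and 3 passed. Of the 5 tested for Nup54, 2 passed and the lowest read -0.09. The other tested probe set of Nup205 read -0.13 and did not pass. The Tnpo1 call rested on its brightest probe set at 0.30, since the others read 0.11 and -0.01. For Ran the probe sets whose name marks them as able to bind related transcripts read 0.12 to 0.21, with 1 of 4 past the threshold (adjusted p = 0.0365), and the single plain one 0.01. The brightest probe sets of Nup93, Nup205, Ranbp2 and Kpnb1, called in the fit over genes, did not pass in the fit over probe sets (adjusted p = 0.0567, 0.0678, 0.0645 and 0.051). With plain probe sets only, 17 of 35 members were higher, where 19.4% of all genes were.

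**Figure D5:**
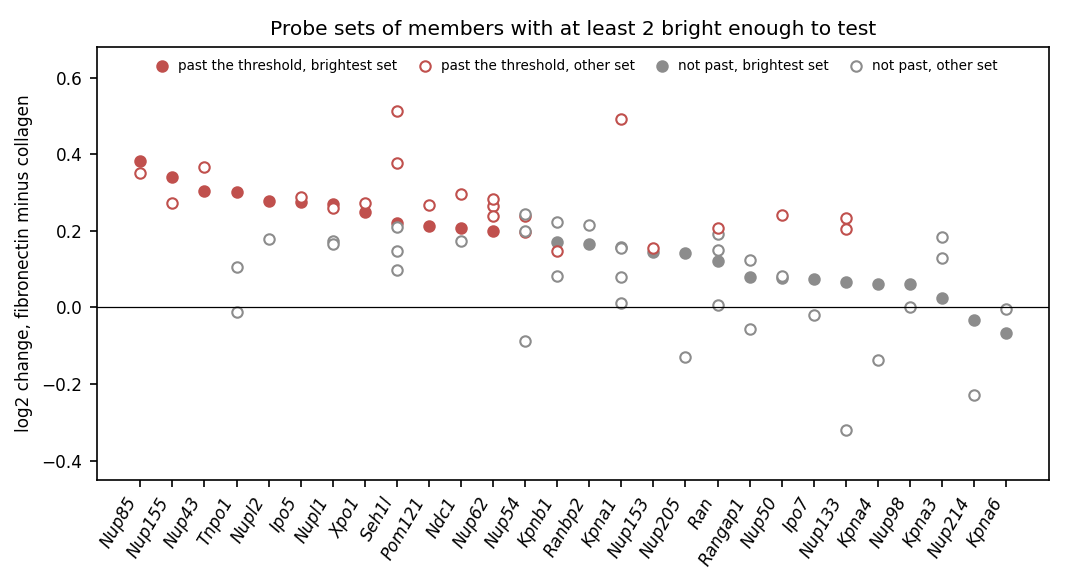
Log2 change (y axis, fibronectin minus collagen) of every tested probe set of the 28 members with at least 2 of them (x axis, ordered by the change of the brightest). Filled points are the brightest probe set of a gene and red marks adjusted p under 0.05 in the fit over all probe sets, in which 0 member probe sets were lower.

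Upstream sequence was in the RefSeq table for 34 of the 42 members, 19 of them among those called higher. A search of both strands of the 250 bases found the CCAAT box, bound by NF-Y, in 15 of the 34 members (44.1%), against 37.5% of all genes in the table. The TTTGAA element, one form of the cell cycle homology element, was in 8 members (23.5%), against 18.3% of genes. The E-box CACGTG was in 6 members (17.6%), against 6.86%, and 3 of those 6 were called higher. The Ets site CCGGAAGT was in 4 members (11.8%), against 3.23%, and the E2f core TTCCCGC in 3 (8.82%), against 4.38%. No match in the printed stretches overlapped another. Every printed stretch holds a CCAAT box, but the classes printed were a choice. In the other classes with calls, the members with the largest change were Nupl2, Nupl1, Pom121 and Tnpo1. Nupl2 had a CCAAT box and the others had none. The matches describe the letters in the windows and were not tested.

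Genes of the same pathway that are not members gave a mixed picture. Of 13 other import and export receptors tested, 3 were higher and 0 lower, with a median of -0.00, where 19.9% of all genes were higher. Xpo4 averaged 4.28 ± 0.13 on fibronectin and 3.85 ± 0.13 on collagen (SD, n = 3 each), a change of 0.43 (SE 0.09, adjusted p = 0.00591). Ipo11 changed by 0.18 (adjusted p = 0.025) and Xpo5, which exports microRNA precursors, by 0.15 (adjusted p = 0.0402). Ipo8 had a change of -0.13 that did not pass (adjusted p = 0.053).

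Of 19 further genes of the Ran cycle, pore assembly and mRNA export, 8 were higher and 0 lower, with a median of 0.15. Of all genes tested, 19.9% were higher and 20.2% lower. Senp1, a SUMO protease found at the pore, averaged 3.98 ± 0.02 on fibronectin and 3.52 ± 0.14 on collagen (SD, n = 3 each), a change of 0.47 (SE 0.07, adjusted p = 0.00157). Ahctf1, which encodes Elys and seeds pore assembly on chromatin, averaged 6.98 ± 0.04 on fibronectin and 6.68 ± 0.03 on collagen, a change of 0.30 (SE 0.04, adjusted p = 0.00157). Alyref, an adaptor for mRNA export, changed by 0.28 (adjusted p = 0.00211), and Nxt1, the partner of the export receptor Nxf1, by 0.24 (adjusted p = 0.0101).

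Of 17 genes of the nuclear envelope and lamina, 7 were higher and 2 lower, with a median of 0.16. The shares over all genes tested were 19.9% higher and 20.2% lower. Lbr, the lamin B receptor, averaged 7.86 ± 0.04 on fibronectin and 7.30 ± 0.23 on collagen (SD, n = 3 each), a change of 0.55 (SE 0.11, adjusted p = 0.00481). Tmpo, which encodes lamina-associated polypeptide 2, changed by 0.33 (adjusted p = 0.000957) and Lmna, the gene of the A-type lamins, by 0.20 (adjusted p = 0.00666). The lower genes were Lemd2, with a change of -0.23 (adjusted p = 0.00574), and Syne1, the nesprin 1 gene, with -0.27 (adjusted p = 0.00669). Syne2, of the same list, went the other way and was higher, with a change of 0.41 (adjusted p = 0.00916). Syne1 and Syne2 were named after their values were seen.

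Most cycling genes moved in the direction of the members, and genes of muscle differentiation moved the opposite way. The cycling genes Top2a, Mki67 and Mcm5 were higher on fibronectin by 0.47, 0.45 and 0.27 (adjusted p = 0.000755, 0.000807 and 0.00303), and Pcna had a change of 0.10 that did not pass (adjusted p = 0.0774). Ccnb1 had no probe set with 1 gene. The differentiation genes were all lower on fibronectin, with changes of -0.83 for Myog, -0.75 for Mymk, -1.53 for Acta1, -0.80 for Tnnt2 and -1.15 for Myh3 (adjusted p from 3.78e-05 to 0.00132). The part of these genes in the result was not tested. In bulk RNA, fewer cells of a type and less RNA per cell cannot be told apart.

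Most markers of other cell types were below the filter. Of the myoblast markers 1 of 6 was higher (Cdh15, 0.24) and 2 were lower (Des, -0.23, and Chrna1, -0.31). Among all genes tested, 19.9% were higher and 20.2% lower. All 4 endothelial markers, the leukocyte genes Ptprc, Adgre1 and Itgam, the adipocyte gene Adipoq and 3 of 4 fibroblast markers with a probe set were below the filter. Summed linear signals of the macrophage list ran from 22.8 to 28.5 on fibronectin and from 35.7 to 42.3 on collagen, with Cd68 at a change of -1.28 (adjusted p = 0.000355) and Csf1r, the other one tested, at -0.03 (adjusted p = 0.821). Those of the adipocyte list ran from 16.7 to 20.0 on fibronectin and from 58.9 to 63.1 on collagen, with Fabp4 at a change of -2.10 (adjusted p = 1.68e-05) and Pparg at -1.43 (adjusted p = 2.77e-05). The fibroblast list ran from 13.4 to 17.2 on fibronectin and from 14.5 to 16.6 on collagen, and Thy1, the only one of it tested, was lower (a change of -0.32, adjusted p = 0.0399). The endothelial list ran from 8.54 to 9.55 on fibronectin and from 8.21 to 9.10 on collagen, and the glial list from 11.7 to 12.4 on fibronectin and from 11.3 to 12.2 on collagen. The part of these markers in the members' changes was not tested.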

How the data were processed

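Total RNA of 6 samples was labelled with biotin and hybridised to an Affymetrix mouse array. The authors deposited log2 signals per probe set. Affymetrix Expression Console and RMA are named in the submitters' processing notes, without version or settings. RMA gives all arrays a like distribution, which hides any change common to most genes, and it compresses changes of dim probe sets. Array signals give no counts. Having only 3 samples per coating limits the precision.

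Groups came from the sample titles. A single gene was listed for 34945 of the 45101 probe sets. The 932 with several genes and the 9211 without an entry stayed unnamed. The comparison was fitted with limma 3.58.1 in R 4.3.3 (lmFit and eBayes, two-sided, no covariates), adjusted over 10941 genes, and the script was checked on simulated data. The check recovered 12% of 1.15-fold, 44% of 1.25-fold, 78% of 1.5-fold and 94% of 2-fold changes, with 11 false calls. It changed 50 genes at each size, far fewer than were called here, so these shares need not hold for the real samples. An exact permutation test of 3 against 3 samples cannot go below 0.1, so none was run. Per-sample values were given for up to 4 members of each role class by smallest p, plus 8 set members. Of the wider lists up to 4 genes by smallest p were named, and Syne1 and Syne2 besides. The members and the lists were chosen with earlier results of these data known. Alternatives were another filter, scaling, probe set rule, limma setting, replicate block, threshold and each sample left out.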

Additional observations from a re-analysis of the deposited data

How the results depend on the processing

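Counts of members higher on fibronectin kept their direction, with 0 members lower under every alternative. Against 23 members as deposited, the count was 13 with no filter on dim genes, 12 at adjusted p under 0.01 and 5 at adjusted p under 0.05 with a log2 change of at least 0.32, where 10.7% and 7.3% of all genes were higher under the last 2 rules. It lay between 14 and 21 when 1 sample was left out, where 14.9% to 18.9% of all genes were higher. Against 17 nucleoporins, the count was 8 with no filter, 11 with plain probe sets only, 8 at adjusted p under 0.01 and 4 with that minimum change, and between 8 and 14 when 1 sample was left out. The count was 8 without fibronectin replicate 1, 9 without fibronectin replicate 2, 10 without fibronectin replicate 3 and 11 without collagen replicate 2. Of all genes, 8.26% were higher with no filter and 19.4% with plain probe sets only. Against 6 transport factors, the count was 1 of 13 with that minimum change, near the 7.3% of all genes. It lay between 5 and 7 with 1 sample left out. The transport factors' median change was 0.073 with plain probe sets, against 0.16. By construction, leaving out a sample gives fewer samples, dropping the filter adds genes, and the other thresholds are stricter. The cause of the lower values was not tested, for these or for plain probe sets.

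The replicate numbers are in the titles only. Deviations of same-numbered samples correlated at 0.10, -0.01 and 0.08, so the numbers were not taken as pairs, and 3 of 6 samples correlated best with the sample of their own number. With the replicate number as a block 20 members were higher, 14 nucleoporins and 6 transport factors, where 18.5% of all genes were higher. The other counts ran from 17 with plain probe sets to 27 after centring. Signal over background limits the dim members, Nup210 above all.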
